A study of Mus musculus with 2 samples.

Results

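The enzymes that remove the poly(A) tail and the cap from mRNAs, and the exonuclease that follows them, were described in Dicer_KO mESCs through 10 genes: Cnot1, Cnot6, Cnot7, Cnot8, Pan2, Pan3, Dcp1a, Dcp2, Ddx6 and Xrn1. The genes were chosen by function, as the factors that carry out miRNA-guided mRNA decay, and all 10 were found by their Ensembl identifiers among the 43629 genes of the count files. PolyA RNA was sequenced in 2 libraries of mouse embryonic stem cells from blastocysts of the 129/Ola background, both with the genotype Dicer knockout. Replicate 1 was taken at passage 7 and replicate 2 at passage 4. The cells derive from the E14TG2a line, in which the study cut out part of Dicer with pairs of CRISPR/Cas9 guides and then sorted single cells. The labels do not say which deletion a library carries, so that passage, clone and library cannot be told apart in any difference between the replicates. Wild-type libraries were not analysed here, and no comparison with cells that have DICER is made.

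MicroRNAs, which DICER cuts from their precursors, guide Argonaute and its TNRC6 partners to mRNAs. TNRC6 proteins recruit both deadenylase complexes of the cell, PAN2-PAN3 and CCR4-NOT, which shorten the poly(A) tail. The helicase DDX6 binds CCR4-NOT through CNOT1 and links it to decapping by DCP2, and XRN1 then degrades the decapped mRNA from its 5′ end. None of these factors is reserved for miRNA targets: the same enzymes act in the bulk turnover of mRNA, in cells with or without miRNAs.

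Both libraries were deep, with 41710122 counts on genes in replicate 1 and 41566184 in replicate 2. Dicer1, the targeted gene, had 1343 counts in replicate 1 and 1510 in replicate 2, a level that has no wild-type value beside it here. The study reported from its RNA sequencing that both mutant lines had lost Dicer mRNA. Its deletions remove only part of the gene, and the counts given here are over the whole gene. All 10 markers listed for pluripotent mESCs, among them Pou5f1 and Nanog, were measured at 10 or more counts on average, and their summed level was 10191 CPM (counts per M counts on genes) in replicate 1 and 6780 CPM in replicate 2. Most of this gap came from Dppa5a, at 4792 and 2041 CPM, and the 10 markers were split evenly, 5 above and 5 below 0 in their log2 ratio of replicate 1 over replicate 2, with a median of 0.06. The 6 trophectoderm markers summed to 106 CPM in replicate 1 and 36.2 CPM in replicate 2, of which Tfap2c made 89.7 and 31.5 CPM. Of these markers, 5 averaged 10 or more counts, and each of the 5 was past 2-fold higher in replicate 1. Of all genes averaging 10 or more counts, 14.2% were past 2-fold in that direction. Cdx2, which defines that lineage, had 6 counts in replicate 1 and 1 in replicate 2. The 7 fibroblast markers summed to 20.4 and 15.9 CPM, of which Thy1 made 19.7 and 14.9 CPM. Dcn had 0 counts in replicate 1 and 19 in replicate 2, and Postn was at 0 in both libraries. The 7 markers of primitive endoderm summed to 18.3 and 10.6 CPM, the 5 of neuroectoderm to 64.9 and 79.4 CPM and the 5 of mesoderm to 2.88 and 9.24 CPM. The part of these markers in the differences described below was not tested. Genes of chromosome 15 were higher in replicate 1, with a median log2 ratio of 0.59, and none of the 10 genes lies there. The 7 chromosomes that carry the 10 genes were summarised only together, with a median of 0.01, so shifts of single chromosomes among them were not examined.

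All 10 genes were expressed in both libraries, with between 2584 and 26772 counts each. Their sum was 0.186% of all counts in replicate 1 and 0.221% in replicate 2. Levels of different genes were compared as counts per kb of merged annotated exons per M counts on genes. On this scale the means ran from 4.83 for Pan3 to 46.1 for Cnot6, a range of 9.54-fold. Cnot6, Ddx6, Cnot1, Cnot8 and Dcp2 formed the upper part of the order, Cnot7, Pan2 and Dcp1a followed, and Xrn1 and Pan3 came last. The gene with the lowest level, Pan3, was above 48.9% of the protein-coding genes averaging 10 or more counts, and Cnot6 was above 94.0% of them.

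**Figure D1:**
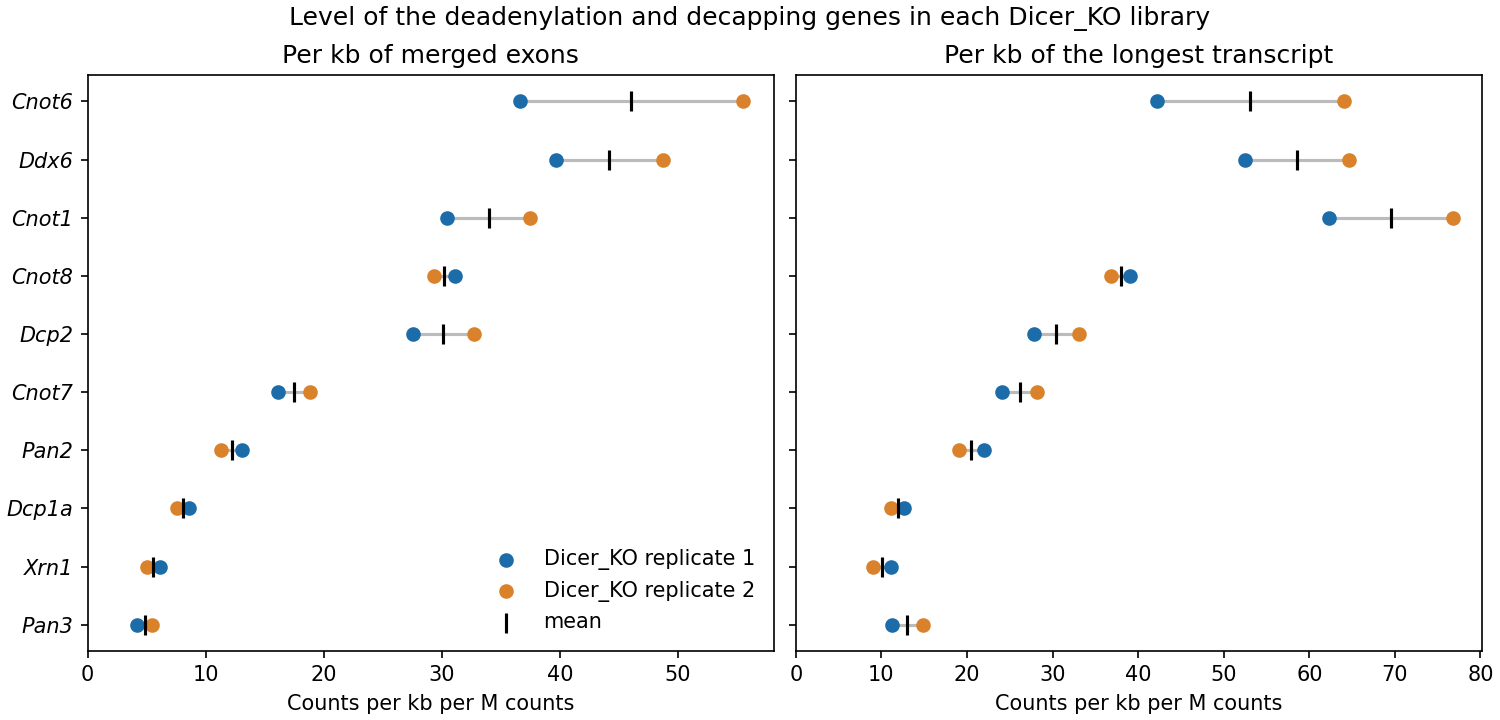
Level of each gene in each Dicer_KO library, as counts per kb per M counts (linear horizontal axis), with kb counted over all merged exons on the left and over the longest annotated transcript on the right. Blue points are replicate 1, orange points are replicate 2 and the black tick is their mean. Cnot6, Ddx6 and Cnot1 lie highest on both scales, but Cnot1 is first only when its longest transcript is used, with a mean of 69.5.

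In the CCR4-NOT complex, the scaffold and 3 of its deadenylases were followed. Cnot1 (ENSMUSG00000036550) encodes the scaffold on which the other subunits assemble. In GRCm38, the build of the files, the gene spans 95719451 to 95807464 of chromosome 8 on the minus strand. It had the most counts of the 10 genes, 21795 in replicate 1 and 26772 in replicate 2. As CPM these were 523 (95% Wilson interval 516 to 530) and 644 (636 to 652). Per kb its level was 34.0 ± 5.01 (SD, n = 2). Its log2 ratio of replicate 1 over replicate 2, on TMM-scaled counts, was -0.42, with a 95% counting interval of -0.44 to -0.39. Replicate 2 was thus the higher library by 1.34-fold. These intervals cover counting error only, since a read is not an independent molecule and each passage has 1 library.

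Cnot6 (ENSMUSG00000020362) encodes a deadenylase of the exonuclease-endonuclease-phosphatase type and lies on the minus strand of chromosome 11, from 49671503 to 49712723. It had 10092 counts in replicate 1 and 15260 in replicate 2, which made 36.6 and 55.5 counts per kb per M counts. This was the widest gap among the 10 genes: its log2 ratio was -0.72 (-0.76 to -0.68), or 1.65-fold higher in replicate 2. Of all genes tested, 68.0% had a smaller difference between the libraries.

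Cnot7 and Cnot8 encode a pair of closely related deadenylases of the DEDD type that occupy the same place in the complex. Cnot7 (ENSMUSG00000031601), on the minus strand of chromosome 8 from 40492540 to 40515847, had 3910 counts in replicate 1 and 4559 in replicate 2, and a log2 ratio of -0.34 (-0.41 to -0.28). Cnot8 (ENSMUSG00000020515), on the plus strand of chromosome 11 from 58104153 to 58118594, had 3420 and 3212 counts. Its log2 ratio was -0.03, with an interval of -0.10 to 0.04 that holds 0, and scaling by total counts turned it to 0.09. Cnot7 was therefore the higher of the pair in counts in both libraries, but not per length. Per kb of merged exons Cnot7 stood at 16.1 in replicate 1 and 18.8 in replicate 2, and Cnot8 at 31.1 and 29.3. The merged exons of Cnot8 are 2636 nt long and those of Cnot7 5821 nt. With the longest transcripts Cnot7 was again the lower, at 0.617 of Cnot8 in replicate 1 and 0.766 in replicate 2.

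In the PAN2-PAN3 complex the adaptor was higher in replicate 2, and the catalytic subunit differed little between the libraries. Pan2 (ENSMUSG00000005682), the nuclease, lies on the plus strand of chromosome 10 from 128303335 to 128321358 and had 4621 counts in replicate 1 and 3991 in replicate 2. Pan3 (ENSMUSG00000029647), the subunit that binds the poly(A)-binding protein, lies on the plus strand of chromosome 5 from 147430161 to 147548502 and had 2597 and 3413 counts. The log2 ratio was 0.09 (0.03 to 0.15) for Pan2 and -0.52 (-0.59 to -0.44) for Pan3. Of all genes tested, 11.4% had a smaller difference than Pan2 and 55.5% a smaller one than Pan3. Per kb of merged exons, Pan2 was 3.14 times the level of Pan3 in replicate 1 (2.99 to 3.30) and 2.06 times in replicate 2 (1.97 to 2.16). These ratios are taken within a library and do not depend on the scaling between libraries. They do depend on length, since Pan3 has 14955 nt of merged exons and a longest transcript of 5541 nt, and with the latter the ratios were 1.95 and 1.28.

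Decapping was represented by the enzyme, its cofactor and the helicase. Dcp2 (ENSMUSG00000024472), which hydrolyses the cap, lies on the plus strand of chromosome 18 from 44380502 to 44424969 and had 9994 counts in replicate 1 and 11845 in replicate 2. Dcp1a (ENSMUSG00000021962), which encodes its cofactor, lies on the plus strand of chromosome 14 from 30479535 to 30527063 and had 2940 and 2584 counts. Ddx6 (ENSMUSG00000032097), the DEAD-box helicase, lies on the plus strand of chromosome 9 from 44604892 to 44640731 and had 13286 and 16288 counts. The helicase and the enzyme were both higher in replicate 2. Their log2 ratios were -0.42 for Ddx6 (-0.45 to -0.38) and -0.37 for Dcp2 (-0.41 to -0.33), while that of Dcp1a was 0.06, with an interval of -0.01 to 0.14 that holds 0. Per kb of merged exons Ddx6 was at 44.2 ± 6.45, Dcp2 at 30.1 ± 3.69 and Dcp1a at 8.06 ± 0.715 (SD, n = 2 each).

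Xrn1 (ENSMUSG00000032410), the cytoplasmic exonuclease that ends the pathway, lies on the plus strand of chromosome 9 from 95954760 to 96057803. Replicate 1 held 4767 counts of it and replicate 2 held 3858, at 114 CPM (111 to 118) and 92.8 CPM (89.9 to 95.8). Its log2 ratio was 0.18 (0.12 to 0.24), the largest of the genes that were higher in replicate 1. Per kb of merged exons it stood at 6.15 and 4.99.

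The difference between the libraries was below 2-fold in all of the 10 genes: 0 of 10 were past 2-fold, where 21.4% of the 17788 genes that averaged 10 or more counts were (the genes tested, 14.2% higher in replicate 1 and 7.14% in replicate 2). Among genes that averaged 100 or more counts, as these 10 do, 14.0% were past 2-fold, 9.93% higher in replicate 1 and 4.11% in replicate 2. With 10 genes and 2 libraries, nothing particular to the genes is read from this count. Past 1.5-fold there was 1 gene, Cnot6, against 39.6% of all genes tested (23.5% higher in replicate 1 and 16.1% in replicate 2) and 31.5% of those averaging 100 or more counts (18.6% and 12.9%). The counting intervals lay apart from 0 in 8 of the 10 genes, 2 above and 6 below it, and in 73.2% of all genes tested (37.8% above and 35.4% below), so at this depth most genes of any kind differed between these libraries by more than counting error. The median log2 ratio was -0.36 over the 10 genes and 0.02 over all genes tested. Replicate 1 was the lower library for 7 of the 10 genes (6 with scaling by total counts, which turned Cnot8 and moved the median of all genes to 0.14), and for 48.7% of all genes tested. The middle 50% of all genes lay between -0.38 and 0.54, and Cnot1, Cnot6, Pan3 and Ddx6 fell below it. No test of a condition can be made, because both libraries belong to the same group.

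**Figure D2:**
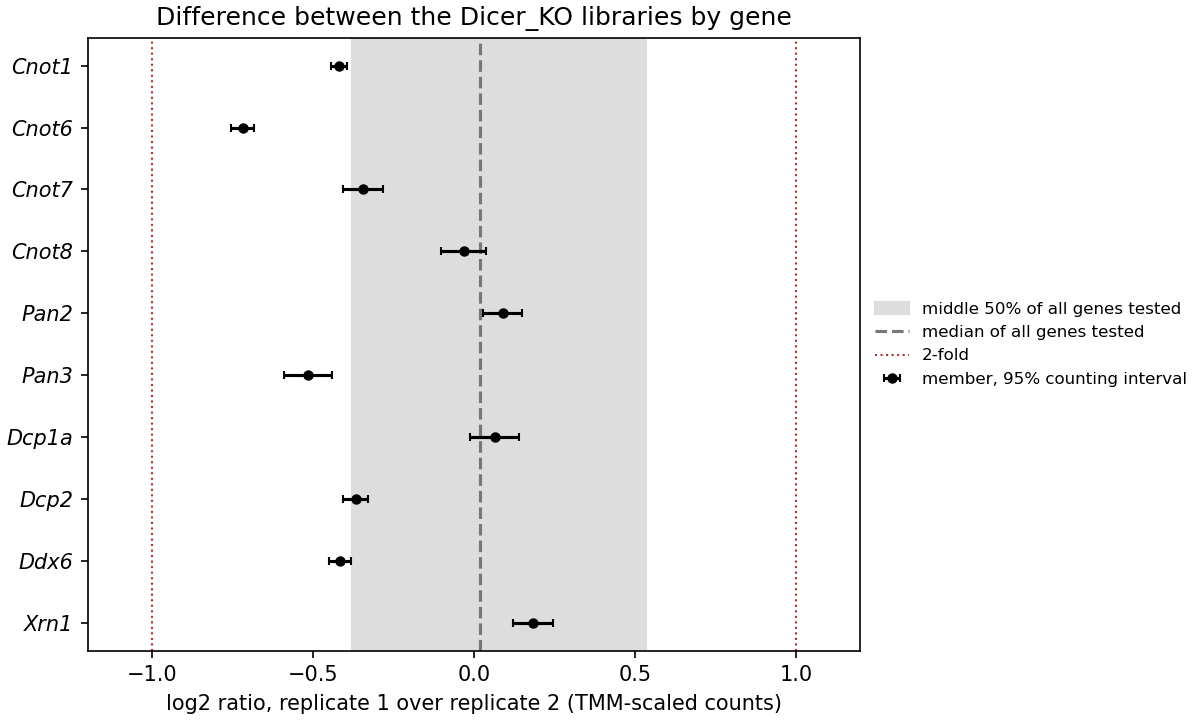
Log2 ratio of replicate 1 over replicate 2 for each gene on TMM-scaled counts, with 95% counting intervals as horizontal bars. The grey band holds the middle 50% of all genes tested (-0.38 to 0.54), the dashed line is their median of 0.02 and the dotted lines mark 2-fold. Cnot6 lies farthest from 0, at -0.72, and no gene reaches 2-fold.

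In the order of levels per kb, 5 of the 9 neighbouring pairs had ranges over the libraries that did not overlap. Ddx6 was above Cnot1, Dcp2 above Cnot7, Cnot7 above Pan2, Pan2 above Dcp1a and Dcp1a above Xrn1, each in both libraries. The other pairs, Cnot6 with Ddx6, Cnot1 with Cnot8, Cnot8 with Dcp2 and Xrn1 with Pan3, did not differ beyond their spread, and each of them changed order between the libraries. With the longest transcript in place of the merged exons, Cnot1 (mean 69.5) came before Ddx6 (58.6) and Cnot6 (53.1), and Pan3 (13.0) before Dcp1a (11.9) and Xrn1 (10.1).

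Proportions between further pairs of the genes were taken within each library. Ddx6 was 1.44 times the level of Dcp2 in replicate 1 (1.403 to 1.478) and 1.49 times in replicate 2 (1.45 to 1.53), with overlapping intervals. Cnot1 was 1.89 times the level of Cnot7 in replicate 1 (1.83 to 1.96) and 1.99 times in replicate 2 (1.93 to 2.05). These intervals also overlap, which is no test that the proportions were equal. The next 3 pairs had intervals that lay apart between replicates 1 and 2. Dcp2 was 3.21 times Dcp1a in replicate 1 (3.09 to 3.35) and 4.34 times in replicate 2 (4.15 to 4.53). Dcp2 was 4.48 times Xrn1 in replicate 1 (4.33 to 4.64) and 6.56 times in replicate 2 (6.32 to 6.80). Pan2 had 0.430 of the level of Cnot1 in replicate 1 (0.416 to 0.444) and 0.302 in replicate 2 (0.292 to 0.312). With the longest transcripts these 5 ratios took other values, since each is multiplied by a constant of length, but the step from one library to the other stayed the same.

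Several of the genes have a paralog with the same activity, and the share of each in its pair was measured per kb of merged exons. Cnot7 made up 34.1% of the sum of Cnot7 and Cnot8 in replicate 1 and 39.1% in replicate 2. Cnot6 made up 78.6% and 85.5% of its sum with Cnot6l, which encodes the alternative subunit of the same type. Cnot6l itself had 4277 and 4033 counts, and its log2 ratio of -0.04 (-0.10 to 0.02) turned to 0.08 with total counts. Dcp1a made up 74.9% and 82.7% of its sum with Dcp1b, the other DCP1 cofactor, which had 759 counts in replicate 1 and 416 in replicate 2 and a log2 ratio of 0.74 (0.57 to 0.92). Xrn1 made up 8.02% and 6.75% of its sum with Xrn2, a mainly nuclear exonuclease that acts in transcription termination and had 11708 and 11413 counts. In each of these 4 pairs the ratios of the libraries had intervals that did not overlap. The cytoplasmic exonuclease was the minor partner of its pair in both libraries, and Cnot6 and Dcp1a the major partners of theirs. These shares depend on length. The ratio of Xrn1 to Xrn2 was 0.0872 in replicate 1 and 0.0724 in replicate 2 with merged exons. With the longest transcripts it was 0.136 and 0.113. On that length Cnot6 was 3.52 and 5.65 times Cnot6l, and Dcp1a 2.92 and 4.69 times Dcp1b, so the major partners stayed the same.

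**Figure D3:**
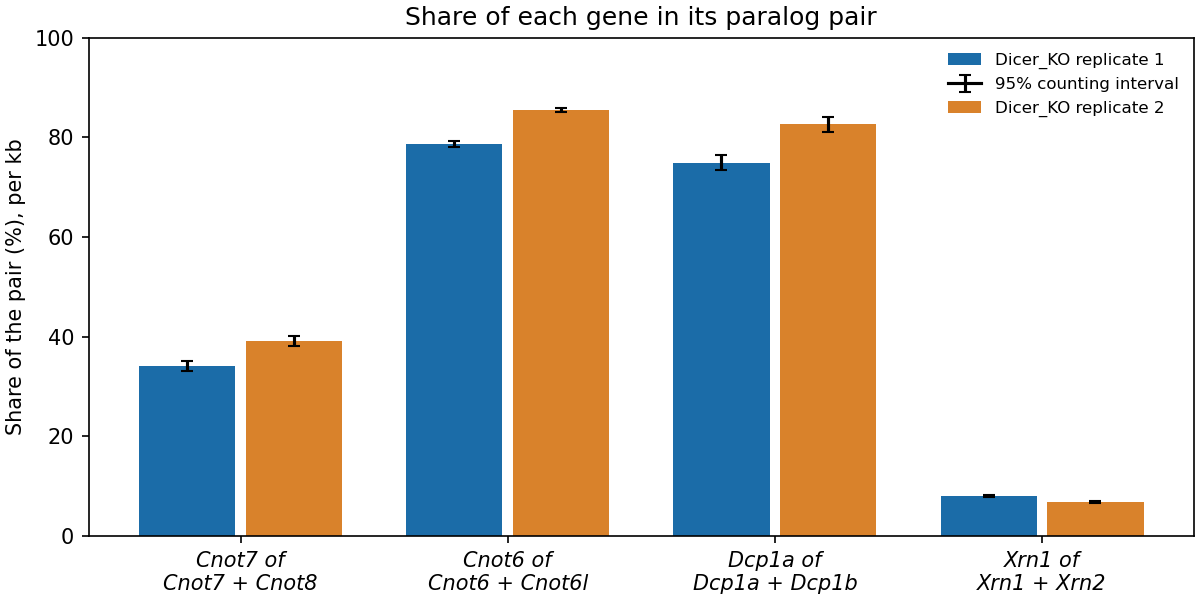
Share of Cnot7, Cnot6, Dcp1a and Xrn1 in the summed level of each with its paralog, in percent of counts per kb of merged exons, for replicate 1 (blue) and replicate 2 (orange). Bars start at 0, and black bars are 95% counting intervals. Cnot6 and Dcp1a hold most of their pairs (78.6% and 74.9% in replicate 1), and Xrn1 holds 8.02% and 6.75% of its pair.

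Near-identical copies could take or give reads, as the treatment of reads with several alignments is not given in the sources used here. Of all 50-nt windows in the transcripts of each gene, between 0.169% (Cnot7) and 7.82% (Cnot8) also occurred in a transcript of another gene. For Cnot8 these windows lie in transcripts annotated to Gm18860. For Cnot1, 4.28% were shared with the processed pseudogene Gm6158, which had 1437 and 1521 counts of its own, and for Ddx6, 3.36% were shared with the processed pseudogene Gm13410, with 550 and 673 counts. Only identical windows were counted, and a share of windows is not a share of reads. How far the counts of Cnot1, Cnot8 and Ddx6 are affected was therefore not measured. Cnot6l, Dcp1b and Xrn2 shared 0 windows with any other gene. No exon of the 10 genes overlapped a gene of the same strand, while exons on the opposite strand covered 4.24% of Cnot7, 4.24% of Xrn1 and 0.769% of Cnot1. The protocol kept the strand, but the strand setting of the counting is not given in the sources used here.

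The genes were also compared by the sites they offer to miRNAs, since the study used the loss of miR-295 and miR-16 to check the knockout. The mature sequences from RefSeq (GRCm38.p6) are shown because their seeds, bases 2 to 8 in capitals, define the sites searched. The miR-295-3p sequence lies on the plus strand at chr7:3220815-3220837, and miR-16-5p has 2 loci, on the plus strand at chr3:69009918-69009939 and on the minus strand at chr14:61631936-61631957.
miR-295-3p: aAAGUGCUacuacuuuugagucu
miR-16-5p: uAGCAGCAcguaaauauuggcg

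The match to the miR-295-3p seed, AGCACTT on the mRNA strand, was found in the 3′ UTR of 3 of the 10 genes, Cnot6, Pan3 and Dcp2, and in 16.6% of 14542 expressed protein-coding genes. The match to the miR-16-5p seed, TGCTGCT, was found in 6 of the 10, Cnot1, Cnot8, Dcp1a, Dcp2, Ddx6 and Xrn1, and in 23.4% of the same genes. The matches of the 2 seeds did not overlap each other. Long 3′ UTRs go with these counts: the median length was 3220 nt in the 10 genes and 1088 nt in all, and 6 of the 10 were longer than the median gene. Per kb of 3′ UTR the 10 genes held 0.265 miR-295-3p matches, against 0.129 in all genes, and 0.232 miR-16-5p matches, against 0.212. Dcp2, whose 3′ UTR of 7240 nt was longer than that of 98.9% of genes, held 5 of the 8 miR-295-3p matches and 2 of the 7 miR-16-5p matches. The 3′ UTRs of the 10 genes came to 30182 nt. The higher density of miR-295-3p matches thus rests largely on Dcp2 and is not a trait of the 10 genes as a set. Cnot7 and Pan2 held neither, which says only that these letters are absent from the transcripts used. The transcript used for Cnot8 is marked in the annotation as incomplete at its 3′ end.

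The matches outside Dcp2 are shown with 10 nt on either side, in the direction of the mRNA and with the seed match in capitals so that the letters behind these counts can be read. Coordinates are those of the 7-nt match in GRCm38. Cnot6 has miR-295-3p matches on the minus strand at chr11:49673045-49673051 and chr11:49672194-49672200, and Pan3 has one on the plus strand at chr5:147547053-147547059.
Cnot6, first match: agaggggaggAGCACTTactcatctct
Cnot6, second match: atttcatattAGCACTTtgaaacctaa
Pan3: acagactccaAGCACTTgcaactgatg

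The miR-16-5p matches lie on the minus strand at chr8:95719766-95719772 in Cnot1, and on the plus strand at chr11:58117876-58117882 in Cnot8, chr14:30524303-30524309 in Dcp1a, chr9:44639365-44639371 in Ddx6 and chr9:96053537-96053543 in Xrn1.
Cnot1: ctactacagcTGCTGCTttttataagg
Cnot8: cttttggcttTGCTGCTctgatgaagt
Dcp1a: tgctttgtgaTGCTGCTattgatctgc
Ddx6: gttacacactTGCTGCTcagggcctgt
Xrn1: atgcggccagTGCTGCTttgttctaaa

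A match is a description of letters and not a measured site. The genes with a miR-295-3p match had log2 ratios between the libraries of -0.72 (Cnot6), -0.52 (Pan3) and -0.37 (Dcp2). Those with a miR-16-5p match lay on both sides of 0, at -0.42 (Cnot1), -0.42 (Ddx6), -0.37 (Dcp2), -0.03 (Cnot8, which turned with total counts), 0.06 (Dcp1a) and 0.18 (Xrn1). Since miRNAs were not measured here and both libraries are labelled Dicer knockout, nothing about the use of these matches can be read from the counts. The first match in Cnot6 and the match in Dcp1a are followed by A, the base that lies opposite base 1 of the miRNA, and the other matches shown are not.

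The other genes of mRNA decay were taken from 8 lists with 68 genes, of which 67 were found in the files and 66 averaged 10 or more counts. Exosc6 was not matched, and Btg4 had 0 counts in both libraries, where the floor of 3 counts stands at 0.0719 CPM in replicate 1 and 0.0722 in replicate 2. The median log2 ratio over the 66 genes was -0.06, with 42 genes below 0 and 24 above (28 and 38 with total counts). With DESeq2 size factors, and also with TMM factors without chromosome 15, 41 were below 0 and 25 above. Of the 66, 3 were past 2-fold (4.55%), each higher in replicate 1, where 14.2% of all genes tested were past 2-fold in that direction. They were Nudt16, which encodes a hydrolase with decapping activity, with 136 and 27 counts and a log2 ratio of 2.17 (1.61 to 2.86), Patl2, a PAT1 homolog, with 454 and 195 counts and 1.09 (0.85 to 1.35), and Pabpc1l, an oocyte poly(A)-binding protein, with 19 and 6 counts and 1.41 (0.16 to 3.15). No list gene was past 2-fold in the direction of replicate 2, where 7.14% of all genes tested were. Of these 3, Patl2 alone averaged 100 or more counts.

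**Figure D4:**
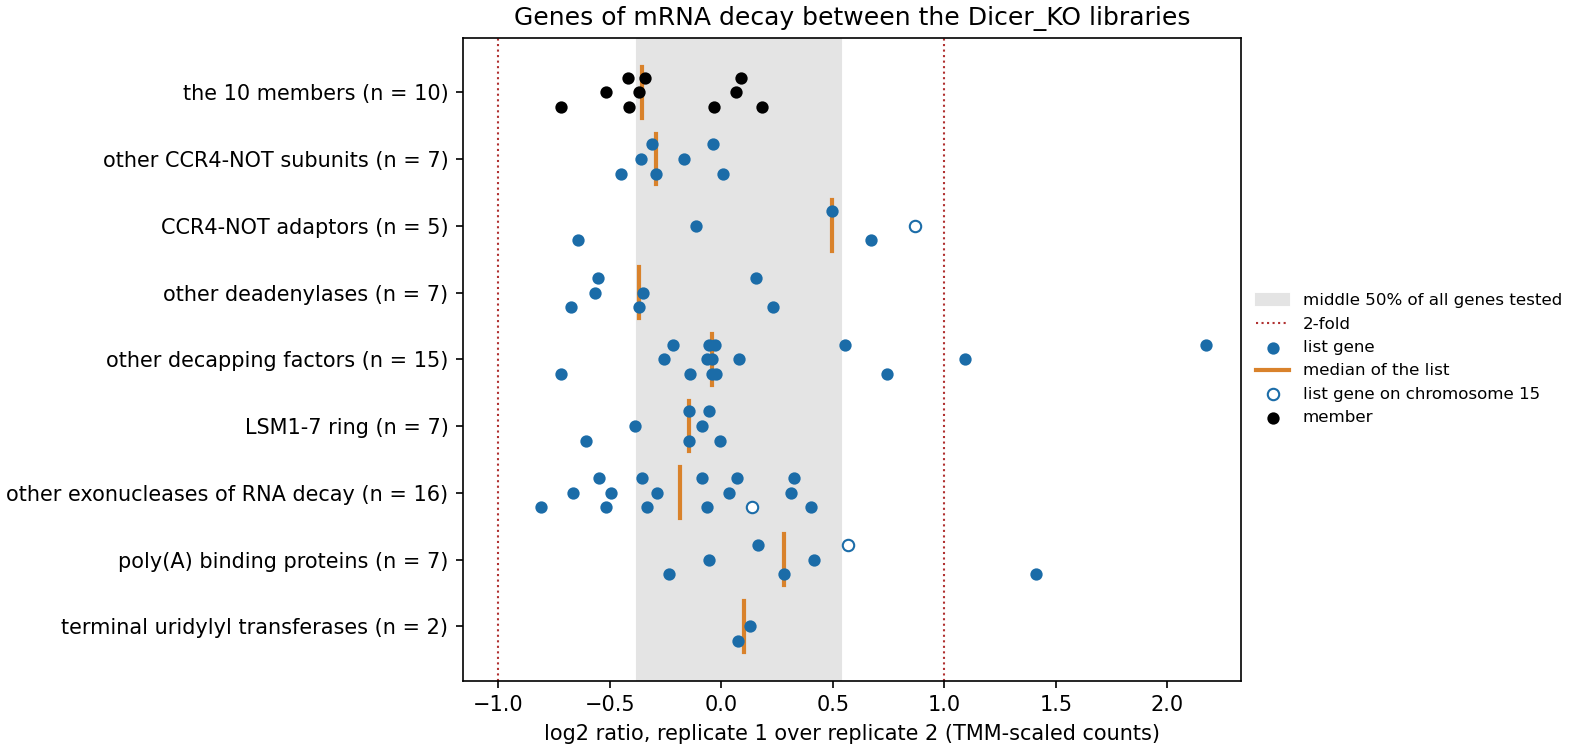
Log2 ratio of replicate 1 over replicate 2 for the 10 genes (black) and for the genes of each decay list (blue; open circles lie on chromosome 15), with the list median in orange. The grey band holds the middle 50% of all genes tested, the dotted lines mark 2-fold and the height of a point within its row carries no value. The 10 genes, the other CCR4-NOT subunits and the other deadenylases have medians of -0.36, -0.29 and -0.37, and 3 list genes lie past 2-fold, all to the right.

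Of the other CCR4-NOT subunits, 6 of 7 were below 0, where 48.7% of all genes tested were, and the median was -0.29 (Cnot6l, one of the 6, turned with total counts). Cnot2, of the module that binds the end of CNOT1, had 5175 counts in replicate 1 and 5903 in replicate 2, with a log2 ratio of -0.31. Its partner Cnot3 had 4931 and 5085 counts and -0.17. Cnot9, which carries the pockets for TNRC6 proteins, had the highest mean of the list per kb of merged exons, 34.3 counts per kb per M counts, though Cnot2 was above it in replicate 1 and with the longest transcripts. It had 4847 and 6085 counts, with a log2 ratio of -0.45 (-0.51 to -0.40). Cnot4, a ubiquitin ligase that is not a stable part of the mammalian complex, had the lowest mean per kb of merged exons, 4.90, and Cnot6l the lowest with the longest transcripts. By the level per kb of merged exons, Cnot9 (34.3), Cnot1 (34.0) and Cnot2 (32.6) lay close together. With the longest transcripts they lay apart, with means of 69.5 for Cnot1, 45.0 for Cnot2 and 40.2 for Cnot9.

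The adaptors of the TOB and BTG family, which bring the deadenylases to selected mRNAs, had 3 measured genes above 0 and 2 below (1 with total counts, where Btg2 turned), with a median of 0.50. One of the 3 above 0, Tob2, lies on chromosome 15. Tob1 had 3480 counts in replicate 1 and 2010 in replicate 2 and Tob2 had 2475 and 1245. Btg2 was the highest of this list, at 47.6 counts per kb per M counts, and differed little between the libraries, with 5447 and 5421 counts. The genes listed as other deadenylases, a list name and not a measured activity, had a median of -0.37, with 5 of 7 below 0. Toe1, a deadenylase of small nuclear RNAs, had the highest mean of them per kb of merged exons, 13.7, and 40.7% of its exons lie opposite those of Tesk2. Parn, the poly(A)-specific ribonuclease, was above it in replicate 1 and with the longest transcripts. Noct, the circadian enzyme Nocturnin, had the lowest mean, 4.61, though Angel1 was below it in replicate 2. Each of the 7 was below Cnot6, Cnot1, Cnot8 and Cnot7 on this scale.

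Among the other decapping factors, the scaffold Edc4 had 4907 and 4643 counts and a log2 ratio of -0.04, and Edc3, an activator of DCP2, had 2662 and 2521 counts and also -0.04 (both turned to 0.07 with total counts). Ajuba, a LIM protein of P-bodies, had the highest mean of this list per kb of merged exons, 42.9 counts per kb per M counts, but Dcps and Pnrc2 were above it in replicate 1 and Lsm14a with the longest transcripts. Nudt16 was the lowest, at 0.754. The 7 genes of the LSM1-7 ring, which binds shortened tails and stimulates decapping, were all below 0, where 48.7% of all genes tested were. Their median was -0.15, and the counting intervals of Lsm1, Lsm2, Lsm4 and Lsm7 held 0. With total counts 3 of the ring genes turned, among them Lsm1 (688 and 672 counts, -0.09). Lsm4, at -0.00489, also turned with DESeq2 size factors (0.00504) and with TMM factors without chromosome 15 (0.0137). Lsm4 was the highest of the ring at 39.0 and Lsm7 the lowest at 0.848. The list of other exonucleases, which also holds subunits of the exosome and SKI complexes, had a median of -0.19 over 16 genes. Of these Xrn2 was the highest at 69.7 and Dis3l2 the lowest at 2.94. Both terminal uridylyl transferases had log2 ratios slightly above 0. That of Tut4 was 0.13 (0.07 to 0.19), and that of Tut7 was 0.07, with an interval of -0.01 to 0.15 that holds 0. Their levels were 11.8 for Tut4 and 4.23 for Tut7.

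Poly(A)-binding protein is the platform on which PAN3 and TNRC6 meet the tail. Pabpc1, its main cytoplasmic gene, had more counts than any of the 10 genes, 107389 in replicate 1 and 66648 in replicate 2, and 319 counts per kb per M counts. Its log2 ratio was 0.57 (0.55 to 0.58), the same sign as Pan2, Dcp1a and Xrn1 and opposite to the other 7 genes (6 with total counts). Pabpc1 lies on chromosome 15, whose 683 tested genes had a median of 0.59, and the part of the chromosome in this ratio was not tested. Processed copies of Pabpc1 exist in the genome, and reads shared with them were not measured here. The list of poly(A)-binding proteins and their partners had a median of 0.28 over 7 genes, 5 of them above 0 (6 with total counts), and Pabpc1l was the lowest at 0.110 counts per kb per M counts. Without the 3 list genes of chromosome 15, the median over all decay lists was -0.07.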

How the data were processed

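Paired reads of polyA RNA were processed by the authors in 3 steps: trimming with Trimmomatic, alignment to mm10 (GRCm38) with STAR 2.4.2a, which kept reads with many alignments, and counting with featureCounts 1.4.5-p1, in which a read where annotated genes overlap was not counted. Each library was deposited as raw counts per Ensembl gene, with no normalization. Both libraries carry the genotype Dicer knockout and formed 1 group, so no condition was tested and no model was fitted.

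Symbols, positions and exon lengths came from GENCODE M21, which is on the same build. It held no entry for 1167 of the 43629 identifiers. Replicate 2 was scaled to replicate 1 by TMM (edgeR 4.0.16, R 4.3.3), and log2 ratios used a pseudocount of 1, over the 17788 genes averaging 10 or more counts. Intervals of ratios are exact conditional binomial, and those of CPM are Wilson intervals (95%, scipy 1.17.1). Depth was 41710122 and 41566184 counts, and the floor of 3 counts was 0.0719 and 0.0722 CPM. 3′ UTRs were those of the longest coding transcript of each gene in the basic set. Alternatives were DESeq2 size factors (version 1.42.0), total counts, TMM without chromosome 15, a pseudocount of 0.1, a 1.5-fold threshold, other count minimums, another length and leaving out each replicate. The steps were also run on simulated counts with known changes, which checks the code and not the spread between these libraries.

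The members, lists, pairs and the sites searched were chosen with earlier results of these data known. Named are all members, Dicer1, their paralogs and partners, list genes past 2-fold and the highest and lowest gene of each list. Genes outside this rule, named after their values were seen, are Tob1, Dcps, Pnrc2, Lsm14a, Parn, Angel1, the list genes of chromosome 15, the markers and the pseudogenes that share windows. Protein sequences were not used here.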

Additional observations from a re-analysis of the deposited data

How the results depend on the processing

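No paired analysis was possible because replicates 1 and 2 share 1 genotype and no second group is compared. The number of the 10 genes past 2-fold was 0 with each scaling, pseudocount and count minimum, and 1 (Cnot6) at 1.5-fold. The median log2 ratio of the 10 genes was -0.36, and -0.24 with total counts, a scaling that moved the median of all genes from 0.02 to 0.14 and each of the 10 ratios alike. Of the 66 decay list genes tested, 3 were past 2-fold, where 21.4% of all genes tested were. At 1.5-fold there were 12, where 39.6% of all genes tested were. Among list genes averaging 100 or more counts, 1 was past 2-fold. Of all genes at that minimum, 14.0% were past 2-fold, and fewer list genes are counted there. Of the 10 places in the order of levels, 5 were kept with the longest transcript, and 6 without either replicate (6 to 6). The log2 ratio between the libraries cannot be computed without a replicate. Depth limits little here, as the lowest of the 10 genes had 2584 counts, and the number of libraries limits every statement.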
